A study of Mus musculus with 6 samples.

Results

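The genes described here are 40 genes of adipocyte identity and triglyceride handling: the coat and fusion proteins of the lipid droplet, the proteins that take up and bind fatty acids, the lipases, the enzymes of triglyceride and fatty acid synthesis, the adipokines, and the transcription factors that drive fat cell differentiation. They were taken from a fixed list of gene symbols, and all probe sets with 1 gene symbol on that list were kept. The annotation gave 33 of the 40 genes a probe set, and these genes had 47 probe sets among the 12422 of the array that are not controls. The other 7 genes, Plin1, Cfd, Acsl1, Dgat2, Agpat2, Acaca and Adrb3, were not measured here. A filter that left out the dimmest 25% of probe sets by their mean over all arrays removed 3 of the 47 (1 each of Cd36, Slc2a4 and Angptl4), so 44 probe sets of all 33 genes were tested.

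Total RNA of whole skin was measured on 6 Affymetrix arrays, 1 sample on each. The GC13 group held 3 samples of a transgenic mouse line that overexpresses Hoxc13, a homeodomain protein active in hair follicles and nails, and the FVB group held 3 samples of FVB mice, an albino inbred strain. All were taken 5 days after birth, and no treatment is labelled. The sources used here do not give the promoter of the transgene, the number of founder lines, the strain on which GC13 was kept or the sex of the mice. Nor do they say whether each sample came from a separate mouse, so the spread behind every p-value is that among these samples and may be technical.

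Mouse skin holds white fat cells in a layer beneath the dermis, which thickens while the hair coat grows, and lipid-producing cells in the sebaceous glands. Fat cells form under the control of C/EBP factors and PPARγ. They take up fatty acids released by lipoprotein lipase, esterify them stepwise onto glycerol, with the DGAT enzymes closing the last step, and store the triglyceride in droplets coated by perilipins. Lipases break it down again, and the cells secrete hormones such as leptin, adiponectin and resistin. In whole skin, fewer cells of a type and less RNA per cell cannot be told apart.

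The arrays differed in RNA quality and in sex-linked transcripts. Loss of the 5' end of transcripts raises the 3' over 5' ratio of control genes, and for Gapdh this ratio was 2.22, 9.58 and 2.19 on the GC13 arrays, against 0.931, 0.958 and 0.894 on the FVB arrays (exact two-sided permutation p = 0.1, the smallest that 3 against 3 arrays allow), so the Gapdh ratio cannot be told apart from the line. For beta-actin the ratio was 1.26, 3.8 and 1.43 in GC13 and 1.36, 1.26 and 1.16 in FVB, so the groups overlapped (exact two-sided permutation p = 0.2) and GC13 replicate 2 was highest. Eif2s3y, a gene of the Y chromosome, stood at 3.25, 143 and 4.60 in GC13 and at 69.4, 98.9 and 79.6 in FVB. Uty, another Y-linked gene, stood at 4.87, 34.7 and 7.19 in GC13 and at 13.3, 15.2 and 13.8 in FVB. Xist, which is made from the inactive X chromosome, stood at 9.15, 1.07 and 12.6 in GC13 and at 9.95, 11.9 and 11.7 in FVB. GC13 replicate 2 stood apart from the other GC13 arrays in each of these measures, and its correlation with GC13 replicates 1 and 3 over all tested probe sets was 0.9222 and 0.8961, below the 0.9616 between those 2 and below its correlation with each FVB array (0.9433, 0.9404 and 0.9287). The summed intensity per array was between 1640876 and 1736141 in GC13 and between 1626361 and 1644444 in FVB. Among the defining markers of basal keratinocytes, Krt5, Krt14 and Krt15 were too dim to be tested, with highest values of 14.2 in GC13 and 8.45 in FVB. Hoxc13 itself had no probe set in the annotation used, so its level could not serve as a check of the labels.

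No member differed between GC13 and FVB at a limma adjusted p below 0.05. At an unadjusted p below 0.05 there were 11 of the 44 member probe sets, 25%, with 8 higher in GC13 (18.2%) and 3 lower (6.82%), where the background over all 9316 tested probe sets was 15.5% (8.52% higher and 6.93% lower). At the adjusted threshold the background was 0.472%, or 44 of 9316 probe sets (0.0859% higher and 0.386% lower). Intensities of the 2 groups did not overlap for 12 member probe sets, 27.3% of the 44, with 6 higher in GC13 and 6 lower, while the background was 22.9% (10.6% higher and 12.3% lower). The median log2 fold change of the members was 0.12 and that of all tested probe sets 0.08, and 29 members lay above 0 and 15 below. The members' median and, on intensities, their share without overlap lay near those of the whole array. After each array was centred on its median, 34.1% of members did not overlap, against 24.5% of all, a setting chosen after seeing the data. The members' share at an unadjusted p below 0.05 was above that of the whole array, in the higher direction. Those 8 include the dimmer probe sets of Dgat1 and Mgll, whose groups overlapped and whose brighter probe sets had log2 fold changes of -1.51 and 0.11. The members were chosen with earlier results of these data known, so these shares are a description. Every log2 fold change here is GC13 minus FVB, from log2(intensity + 2) after each array was centred on its median, and so understates the change of dim probe sets. Intensities are the deposited ones, on a linear scale, and the level of one probe set says nothing of that of another. Summed intensities and distances between probe sets are compared between arrays only.

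**Figure D1:**
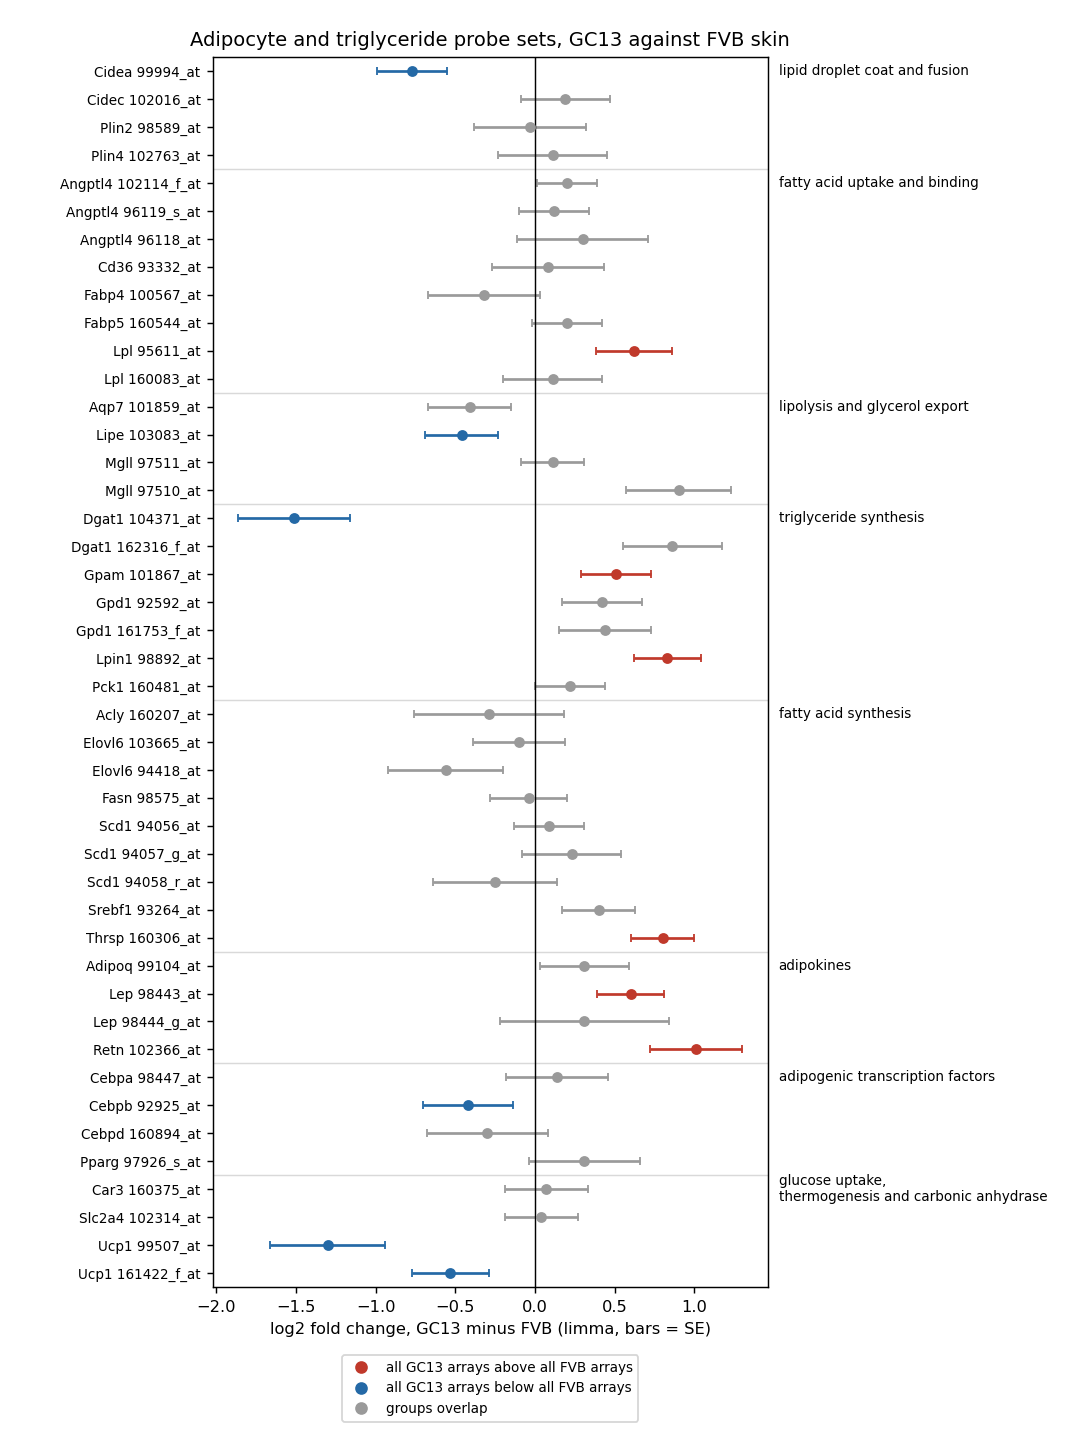
Log2 fold change (GC13 minus FVB, horizontal axis) with its SE for the 44 tested member probe sets, grouped by role and coloured by whether the intensities of the 2 groups overlap. The values run from -1.51 for Dgat1 104371_at to 1.01 for Retn, on both sides of 0, and none passed the threshold.

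Dgat1, one of the enzymes that join the last fatty acid to diacylglycerol, was measured by 2 probe sets that moved apart. The brighter, 104371_at, had intensities of 55.0, 16.8 and 46.3 in GC13, against 114, 120 and 96.9 in FVB. All 3 GC13 arrays lay below all FVB arrays, with replicate 2 lowest, and the log2 fold change was -1.51 (SE 0.35, adjusted p = 0.126 by limma). The dimmer, 162316_f_at, whose suffix f in the array maker's naming marks a probe set that can match a family of similar sequences, had 17.4, 11.1 and 28.4 in GC13 and 9.30, 6.57 and 13.4 in FVB. Here the groups overlapped, with GC13 replicate 2 below FVB replicate 3, though not after centring, and the log2 fold change was 0.86 (SE 0.31, adjusted p = 0.249 by limma).

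The distance between the 2 Dgat1 probe sets within an array was set against the line. The brighter exceeded the dimmer by 1.56, 0.53 and 0.67 on the log2 scale in GC13 and by 3.35, 3.83 and 2.68 in FVB. Every GC13 value lay below every FVB value. The means were 0.92 ± 0.56 in GC13 and 3.29 ± 0.58 in FVB (SD, n = 3 each), a difference of -2.37 (exact two-sided permutation p = 0.1, the smallest possible; 0.55 after Benjamini-Hochberg adjustment over the 11 pairs of member probe sets compared in this way). Leaving out 1 array at a time gave differences from -2.69 to -2.10. The difference was -1.99 with a pseudocount of 8 and -1.31 with one of 32, at which the log2 fold change of the dimmer probe set was 0.28. The 1287 genes of the array with more than 1 tested probe set give a description only, not a test. These genes were not matched for intensity, and the members were chosen with earlier results of these data known. The brightest and the next brightest probe set differed in log2 fold change by at least as much as for Dgat1 in 6 genes, or 0.466%. The median gap over the 1287 genes was 0.38. On opposite sides of 0 lay 43.7% of them. The 2 probe sets of Dgat1 therefore give no single direction for the gene, and their probe sequences were not analysed here.

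**Figure D2:**
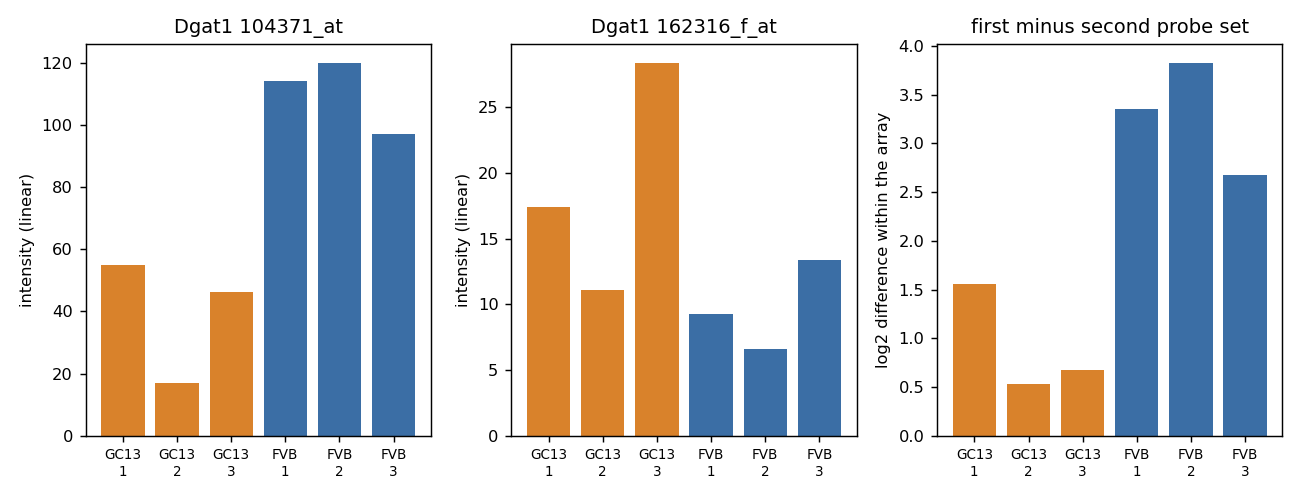
Intensities of the brighter (left) and dimmer (middle) probe set of Dgat1 on each array, and the log2 distance between them within each array (right), with GC13 in orange and FVB in blue. The distance is 0.53 to 1.56 on GC13 arrays and 2.68 to 3.83 on FVB arrays.

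The other enzymes of triglyceride synthesis had their tested probe sets above 0. Gpam, the mitochondrial enzyme that adds the first fatty acid to glycerol phosphate, had 248, 264 and 234 in GC13 and 173, 171 and 205 in FVB. Lpin1, the phosphatase that makes diacylglycerol, had 71.0, 69.9 and 82.0 in GC13 and 45.8, 47.9 and 36.3 in FVB. In both, every GC13 array lay above every FVB array, and replicate 2 lay with the other GC13 arrays. Their log2 fold changes were 0.51 (SE 0.22, adjusted p = 0.318 by limma) for Gpam and 0.83 (SE 0.21, adjusted p = 0.14 by limma) for Lpin1. Gpd1, which makes glycerol phosphate in the cytosol, had 321, 193 and 435 in GC13 and 216, 239 and 250 in FVB by its brighter probe set. Replicate 2 was below all FVB arrays and the other GC13 arrays were above them. The log2 fold changes were 0.42 and 0.44 for the brighter and dimmer probe sets of Gpd1, and 0.22 for Pck1, which feeds carbon into glycerol in fat cells.

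Of the genes of fatty acid synthesis, Thrsp alone had intensities that did not overlap between the groups. Thrsp, a lipogenic protein induced by thyroid hormone, had 62.1, 57.8 and 83.1 in GC13 and 40.5, 36.7 and 41.6 in FVB, a log2 fold change of 0.80 (SE 0.20, adjusted p = 0.139 by limma). Srebf1, the transcription factor gene that controls lipogenic enzymes, had 532, 292 and 432 in GC13 and 308, 336 and 331 in FVB (log2 fold change 0.40, SE 0.23), and overlapped through replicate 2, though not after centring. The enzyme genes below it in the pathway lay on both sides of 0. Acly, which makes cytosolic acetyl-CoA, had 289, 1020 and 498 in GC13 and 725, 745 and 583 in FVB. Its replicate 2 lay above all FVB arrays and its replicates 1 and 3 below them, and the log2 fold change of -0.29 had an SE of 0.47. Fasn, the fatty acid synthase gene, had a mean of 344 ± 59.6 in GC13 and 370 ± 44.7 in FVB (SD, n = 3 each), with a 95% confidence interval of the log2 fold change from -0.58 to 0.51.

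Scd1, the desaturase gene that makes monounsaturated fatty acids, was measured by 3 probe sets, of which 94056_at had a mean of 2078 ± 197 in GC13 and 2041 ± 26.4 in FVB (SD, n = 3 each). The 95% confidence interval of its log2 fold change was from -0.41 to 0.60. The second bright probe set, 94057_g_at, had 1354, 2302 and 2711 in GC13 and 2053, 1931 and 1551 in FVB, and its GC13 arrays lay on both sides of FVB. The third was dim, at 6.99 ± 5.75 in GC13 and 8.0 ± 1.73 in FVB. Elovl6, which lengthens saturated fatty acids, had 608, 765 and 449 in GC13 and 695, 674 and 646 in FVB by its brighter probe set, with a log2 fold change of -0.10, and -0.56 by its dimmer one. Both overlapped.

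The adipokine genes all lay above 0. Retn, which encodes resistin, had 635, 278 and 410 in GC13 and 241, 215 and 196 in FVB. No FVB array reached the GC13 arrays, among which replicate 2 was lowest, and the log2 fold change was 1.01 (SE 0.29, adjusted p = 0.172 by limma), or 2.01-fold. Lep, which encodes leptin, the hormone of fat stores, had 249, 237 and 312 in GC13 and 173, 160 and 222 in FVB by its brighter probe set, a log2 fold change of 0.60 (SE 0.21, adjusted p = 0.244 by limma). Its dimmer probe set overlapped, with a log2 fold change of 0.31 and an SE of 0.53. Adipoq, which encodes adiponectin, had 802, 1197 and 775 in GC13 and 790, 743 and 768 in FVB. Replicate 2 stood above the rest and the other 2 GC13 arrays lay at the level of FVB, with a log2 fold change of 0.31 (SE 0.28, adjusted p = 0.632 by limma).

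Among the genes of fatty acid uptake and binding, Lpl stood apart. Lpl, the lipase that frees fatty acids from circulating lipoproteins, had 1051, 1012 and 785 in GC13 and 664, 655 and 609 in FVB by probe set 95611_at, a log2 fold change of 0.62 (SE 0.24, adjusted p = 0.281 by limma). The groups did not overlap. Its dimmer probe set had 56.2 ± 19.5 in GC13 and 54.8 ± 17.4 in FVB (SD, n = 3 each) and a log2 fold change of 0.11. Angptl4, a secreted inhibitor of lipoprotein lipase, had log2 fold changes of 0.20, 0.12 and 0.30 by its 3 tested probe sets. The binding protein gene of fat cells, Fabp4, had 81.3, 108 and 50.3 in GC13 and 96.9, 111 and 94.6 in FVB (log2 fold change -0.32, SE 0.35). Its epidermal relative Fabp5 had 588 ± 57.3 in GC13 and 537 ± 24.8 in FVB, and the fatty acid receptor gene Cd36 had 43.1 ± 16.5 in GC13 and 41.1 ± 6.07 in FVB (SD, n = 3 each). The log2 fold changes of Fabp5 and Cd36 were 0.20 and 0.08.

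Of the lipid droplet genes, Cidea was lower in GC13 and the others overlapped. Cidea, which enlarges droplets and is known from brown fat and sebaceous glands, had 110, 140 and 139 in GC13 and 246, 217 and 235 in FVB. All GC13 arrays lay below all FVB arrays, and the log2 fold change was -0.77 (SE 0.22, adjusted p = 0.182 by limma). The droplet coat gene Plin2 had 710, 229 and 515 in GC13 and 500, 413 and 499 in FVB. Plin4, another perilipin gene, had 177, 65.4 and 185 in GC13 and 140, 118 and 121 in FVB. Cidec, a droplet fusion gene of white fat, had 89.4, 36 and 60.3 in GC13 and 51.6, 53.8 and 54.7 in FVB. In these 3 genes GC13 replicate 2 was below every FVB array while GC13 replicates 1 and 3 were above every FVB array, and their log2 fold changes were -0.03, 0.11 and 0.19.

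The genes of triglyceride breakdown had no common direction. Lipe, which encodes hormone-sensitive lipase, had 115, 65.7 and 124 in GC13 and 150, 136 and 144 in FVB. The groups did not overlap, and the log2 fold change was -0.46 (SE 0.23, adjusted p = 0.379 by limma), which was -0.28 without replicate 2, the lowest array. Mgll, the monoglyceride lipase gene, had 365 ± 24.8 in GC13 and 356 ± 11 in FVB by its brighter probe set (SD, n = 3 each), with a log2 fold change of 0.11. Its dimmer probe set had 13.8, 9.03 and 27.3 in GC13 and 5.26, 7.72 and 10.9 in FVB and a log2 fold change of 0.90 (SE 0.33). Aqp7, the channel through which fat cells release glycerol, had 24.7, 13.9 and 15.6 in GC13 and 20.0, 27.8 and 29.2 in FVB, with a log2 fold change of -0.41.

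Ucp1, the uncoupling protein gene of thermogenic fat, was lower in GC13 by both of its probe sets, and both were dim. The brighter had 13.5, 30.9 and 16.7 in GC13 and 58.8, 54.2 and 46.8 in FVB, a log2 fold change of -1.30 (SE 0.36, adjusted p = 0.158 by limma). The other, an f probe set, had 8.03, 11.7 and 10.6 in GC13 and 14.5, 19.0 and 15.3 in FVB, a log2 fold change of -0.53 (SE 0.24, adjusted p = 0.348 by limma). In neither did the groups overlap, and GC13 replicate 2 was nearest to FVB in both. The listed markers of brown fat lay on both sides of 0. Their summed intensity over 7 genes was between 208 and 253 in GC13 and between 201 and 212 in FVB, and of the 7 probe sets tested 5 lay above 0 and none passed. Dio2, the deiodinase gene that activates thyroid hormone, had 24.2, 30.2 and 24.1 in GC13 and 14.7, 13.1 and 13.4 in FVB (log2 fold change 0.91, SE 0.24, adjusted p = 0.148 by limma). Zic1 and the brighter probe set of Cox8b had log2 fold changes of 0.49 and 0.25, while Elovl3 and Cox7a1 had -0.39 and -0.13. Car3, a carbonic anhydrase gene rich in fat and muscle, had 1035 ± 184 in GC13 and 1030 ± 71.9 in FVB (SD, n = 3 each), and the glucose transporter gene Slc2a4 had 30.2 ± 9.71 in GC13 and 29.9 ± 3.66 in FVB.

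The transcription factors of fat cell differentiation had log2 fold changes between -0.42 and 0.31. Cebpb, which acts early, had 488, 669 and 429 in GC13 and 696, 747 and 762 in FVB. All GC13 arrays lay below all FVB arrays before centring and overlapped after it, and the log2 fold change was -0.42 (SE 0.28, adjusted p = 0.5 by limma). Cebpd, its early partner, had 55.9, 132 and 67.0 in GC13 and 105, 106 and 99.5 in FVB (log2 fold change -0.30, SE 0.38), with replicate 2 above FVB and the other GC13 arrays below. Cebpa, which acts later, had 1205, 546 and 1617 in GC13 and 965, 964 and 999 in FVB, in the opposite order: replicate 2 below FVB and the others above. Pparg, the gene of the main fat cell factor PPARγ, had 58.9, 95.9 and 46.3 in GC13 and 58.5, 57.2 and 47.6 in FVB, with log2 fold changes of 0.14 for Cebpa and 0.31 for Pparg.

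**Figure D3:**
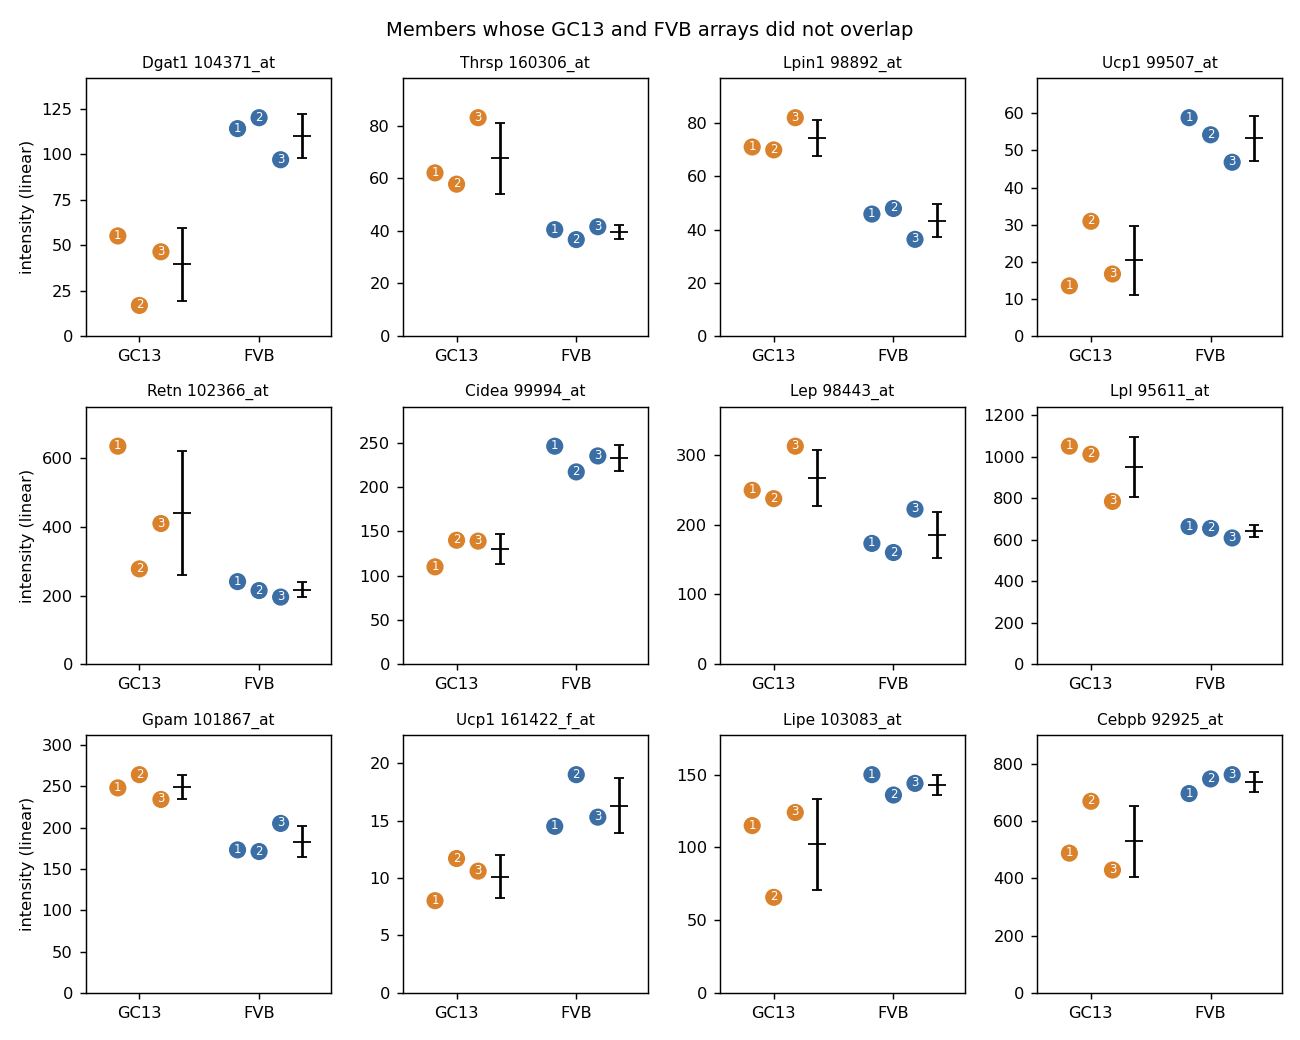
Deposited intensities (vertical axes, linear, from 0) of the 12 member probe sets whose groups do not overlap, with GC13 arrays in orange left of FVB arrays in blue, each point numbered by its replicate and the bars showing mean and SD of 3 arrays. The 6 probe sets lower in GC13 are Dgat1 104371_at, both of Ucp1, Cidea, Lipe and Cebpb, and the 6 higher are Thrsp, Lpin1, Retn, Lep, Lpl and Gpam.

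The members varied more among GC13 arrays than among FVB arrays, as the rest of the array did. The median SD of a member's centred log2 value was 0.391 in GC13 and 0.169 in FVB, and over all tested probe sets it was 0.412 in GC13 and 0.148 in FVB. GC13 replicate 2 lay on the other side of the FVB mean from both other GC13 arrays in 13 of the 44 member probe sets, 29.5%, against a background of 34.6% of all tested probe sets. The median of the members relative to the FVB mean was 0.18, 0.31 and -0.02 on GC13 replicates 1, 2 and 3, and that of all tested probe sets was 0.07, 0.21 and -0.02.

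**Figure D4:**
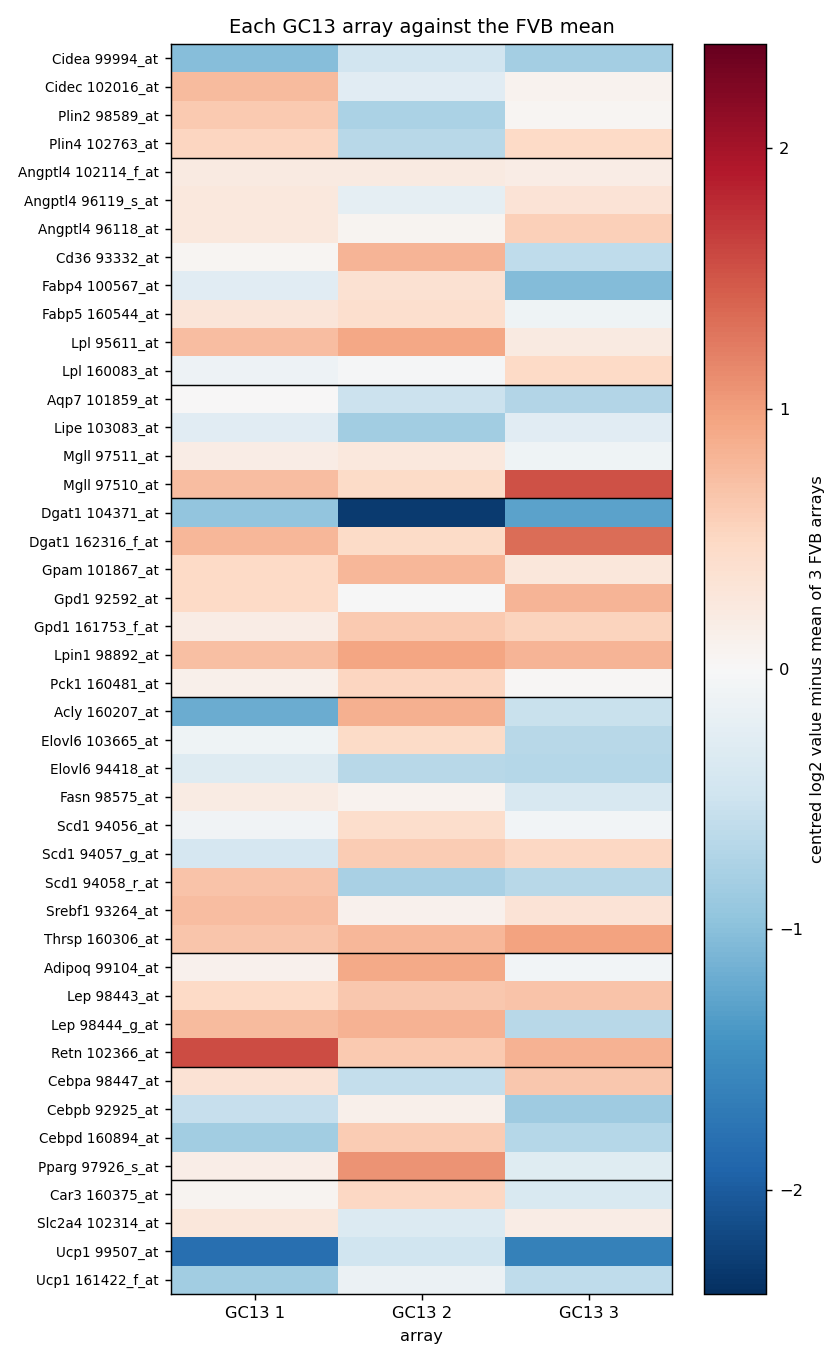
Centred log2 value of each tested member probe set on each GC13 array minus the mean of the 3 FVB arrays, with red above and blue below the FVB mean and lines between roles. Replicate 2 differs in sign from both other GC13 arrays for Plin2, Plin4, Cidec, Acly, Cebpa, Cebpb and Cebpd, among others, while Lpin1, Thrsp and Retn are above and Cidea and Ucp1 below the FVB mean on all 3.

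Without GC13 replicate 2, 10 of the 44 member probe sets passed the threshold, 22.7%, where the background was 15.0% of 9316 probe sets. Of these, 6 were lower in GC13 (13.6% of the members, against 8.84% of all): both probe sets of Ucp1 (-1.72 and -0.72 on the log2 scale), Dgat1 104371_at (-1.11), Cidea (-0.92), Cebpd (-0.76) and Cebpb (-0.70). The 4 that were higher (9.09%, against 6.14% of all) were Retn (1.20), Thrsp (0.81), Lpin1 (0.78) and the brighter probe set of Gpd1 (0.64). Their limma adjusted p-values were between 0.00581 for Ucp1 and 0.0483 for Gpd1. In that comparison both remaining GC13 arrays had Eif2s3y at or below 4.60 and all FVB arrays at or above 69.4, so Y-linked level cannot be told apart from the line there, whereas Xist overlapped. A dim probe set of Slc2a4 passed the filter on low values there and had an adjusted limma p of 0.0767. No other array left out alone gave a member past the threshold.

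**Figure D5:**
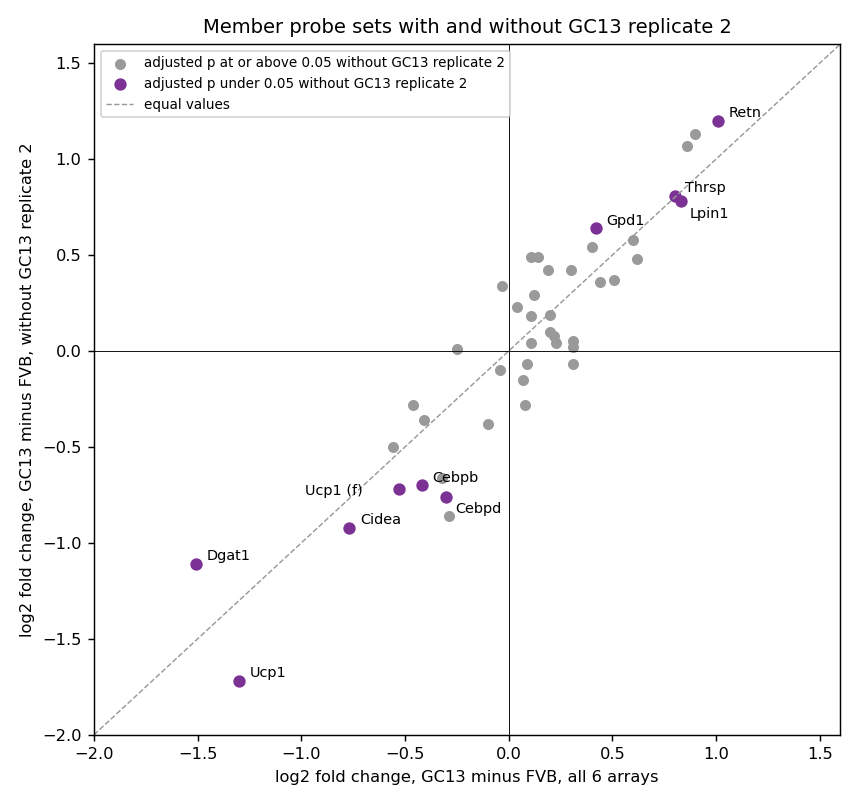
Log2 fold change of each tested member probe set with all 6 arrays (horizontal) and without GC13 replicate 2 (vertical), with equal values on the dashed line. The 10 probe sets past the threshold without that array are in purple and named, with (f) for the dimmer Ucp1 probe set.

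Further genes of the same pathways, in 7 lists by role, had no member past the threshold either. Of 130 genes listed, 79 were tested by 91 probe sets. Of these 91, 15 had an unadjusted limma p below 0.05, a share near the background of 15.5% of all tested probe sets. The groups did not overlap in 18, or 19.8%, below the background of 22.9%. The median log2 fold change was 0.02. The lists of fatty acid synthesis and of fatty acid uptake had medians of -0.22 and -0.16, the list of insulin signalling and adipokine receptors had 0.40, and the other 4 lay between 0.00 and 0.14. Acads, which encodes the short-chain enzyme of fatty acid oxidation, had 29.8, 19.0 and 29.7 in GC13 and 51.2, 54.4 and 62.4 in FVB by 103401_at (log2 fold change -0.99, SE 0.20, adjusted p = 0.0977 by limma). Its other probe set, 161469_r_at, had a log2 fold change of 0.31. Ces1d, a carboxylesterase gene of triglyceride breakdown, had 1.49, 20.2 and 1.6 in GC13 and 33.1, 38.2 and 26.5 in FVB by one probe set (log2 fold change -2.32, SE 0.73, adjusted p = 0.204 by limma). Its other probe set had 1.09, 36.2 and 2.64 in GC13 and 28.3, 25.5 and 25.1 in FVB, and replicate 2 stood apart from the other GC13 arrays in both. The Ces1d values of 1.49 and 1.6 lay below the 2 added before taking logs. The size of the log2 fold change of -2.32 therefore depends on that setting.

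Several genes of these 7 lists had groups that did not overlap, though their share, 19.8%, was below the background of 22.9%. Dlk1, a preadipocyte gene that restrains fat cell differentiation, had 914, 399 and 1028 in GC13 and 350, 348 and 398 in FVB (log2 fold change 1.06, SE 0.30, adjusted p = 0.173 by limma). Rxra and Rxrb, which encode dimer partners of PPARγ, had log2 fold changes of -0.70 and -0.90, while a second probe set of Rxra had -0.16. The fatty acid transporter genes Slc27a1 and Slc27a4 had -1.42 and -0.63, and Slc25a1, which exports citrate from mitochondria for lipogenesis, had -0.80 by its brighter probe set. Lepr, the leptin receptor gene, and Rbp4, the gene of a retinol carrier also secreted by fat, had 0.70 and 0.64. The limma adjusted p-values of these genes lay between 0.173 and 0.296 where the groups did not overlap.

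Markers of mature fat cells outside the members were also divided. Their summed intensity over 9 genes was 1579, 1274 and 1431 in GC13 and 1342, 1254 and 1365 in FVB, so that the groups overlapped. Of 11 tested probe sets, 3 lay wholly above FVB and 5 wholly below, where the background was 22.9% of probe sets in either direction, and none passed. Cdo1, a cysteine dioxygenase gene, had 345, 366 and 269 in GC13 and 207, 204 and 201 in FVB, while Sncg, the synuclein gene of fat cells and neurons, had 44.0, 63.1 and 41.4 in GC13 and 112, 102 and 105 in FVB. Pnpla2, which encodes the first lipase of triglyceride breakdown, had 762, 246 and 603 in GC13 and 531, 481 and 529 in FVB. Its replicate 2 was below FVB and the other GC13 arrays above, the order of Plin2, Plin4 and Cidec.

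Summed markers of some other cells of skin differed between the groups. The summed intensity of 7 fibroblast genes was between 9460 and 11387 in GC13 and between 7454 and 8195 in FVB. That of 10 skeletal muscle genes was between 4635 and 5567 in GC13 and between 4113 and 4160 in FVB, and that of 8 endothelial genes between 873 and 1145 in GC13 and between 630 and 762 in FVB. Bright genes weigh most in such sums, among them Col1a1, Col1a2 and Col3a1 for fibroblasts and Acta1 and Myl1 for muscle. Of the tested probe sets 12 of 12 fibroblast, 11 of 12 muscle and 7 of 9 endothelial ones lay above 0, and none passed. Wholly above FVB lay 7 fibroblast, 7 muscle and 2 endothelial ones, and 1 endothelial one lay wholly below. The background was 22.9% of probe sets in either direction. The median of all tested probe sets was itself above 0, at 0.08, and several of these genes had more than 1 probe set. Among the endothelial genes, Cldn5 had a log2 fold change of -0.65. The leukocyte genes summed to between 691 and 768 in GC13 and between 762 and 808 in FVB over 12 genes, and 3 sebaceous markers with a probe set summed to between 128 and 207 in GC13 and between 142 and 176 in FVB. The sums of 6 basal keratinocyte genes lay between 627 and 1053 in GC13 and between 583 and 686 in FVB, and overlapped. Krt5, Krt14 and Krt15 were too dim to be tested, so these sums are nearly all Itga6, Itgb4 and Col17a1. Lpl and Car3 are made in muscle as well as in fat. The part of these cells in the values of the members was not tested.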

How the data were processed

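The authors deposited intensities on a linear scale, 1 per probe set and array, all above 0. Neither the software nor any detection call is given in the sources used here, so the signal over background of dim probe sets is unknown. The fit left out the 66 control probe sets, took log2 of intensity + 2, where 2 is the 10th percentile of all intensities, rounded, and dropped the dimmest 25%, which left 9316. The array medians on that scale differed by 0.345, above a limit of 0.2, and were therefore set equal.

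Symbols came from the platform annotation, updated through Entrez identifiers with the RefSeq table of GRCm38.p6, used for names only. Of 12422 probe sets 10833 had 1 gene symbol, 396 had several and stayed unnamed, and 1193 had none, and 10817 matched RefSeq. The test of GC13 against FVB was limma's (version 3.58.1, R 4.3.3; lmFit, eBayes), two-sided, adjusted by Benjamini-Hochberg across the 9316, with a threshold of 0.05. The test was also run on simulated data in which both groups had the same spread. There it missed nearly all log2 changes of 1 and found most of 2. The share of false calls was above 0.05 for both. In the data GC13 varied more than FVB, so these rates need not hold here. The count of 0 members past the threshold does not show that changes were absent. Single values were compared by exact permutation.

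The members and lists were chosen with earlier results of these data known. Every member is accounted for. The rule for description in full took Dgat1, the members whose groups do not overlap and the 12 brightest, and of each further list up to 3 genes of smallest p. Values of other members, and of Pnpla2, Krt5, Krt14, Krt15, Eif2s3y, Uty, Xist, Rxrb, Zic1, Elovl3, Cox7a1, Cox8b, Cdo1 and Sncg, were chosen after they were seen. The alternatives tried were pseudocounts of 8 and 32, 2 filters, 2 scalings, a trend in the variance, array weights, the replicate block and leaving out each array.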

Additional observations from a re-analysis of the deposited data

How the results depend on the processing

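The count of 0 member probe sets past the threshold held with a pseudocount of 8, other filters, no centring, quantile normalization, a variance trend, the replicate block and the brightest probe set of each gene. It was 1 (Cidea) with a pseudocount of 32. When 1 array was left out it was from 0 to 10, highest without GC13 replicate 2 (22.7%, against 15.0% of all probe sets). With array weights, which gave GC13 replicate 2 a weight of 0.107, it was 20 of 44 member probe sets, where 3850 of all 9316 passed. The count over all probe sets, 44, was 117 with a pseudocount of 32, 23 with the dimmest 50% left out, 28 without centring, 3850 with array weights and from 0 to 1396 when 1 array was left out, highest without GC13 replicate 2, and 21 and 14 without GC13 replicates 1 and 3. It was 0 without any 1 of the FVB arrays. Probe sets of further pathway genes past the threshold numbered 40 of 91 with array weights, where 3850 of all 9316 passed. They numbered from 0 to 14 when 1 array was left out, set against 91 tested with all 6 arrays. The 14 were reached without GC13 replicate 2, where 15.0% of all probe sets passed. Member probe sets without overlap were 15 on centred values (34.1%, against 24.5% of all probe sets) and from 12 to 27 when 1 array was left out, highest without GC13 replicate 2 (61.4%, against 55.2% of all), settings chosen after seeing the data. The cause of these differences was not tested. The members' median stayed between 0.04 and 0.18.

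The labels do not say whether samples of the same replicate number were paired. The correlations of same-numbered deviations from the group means were -0.0676, 0.18 and 0.357, the last being the highest of any pair. GC13 replicate 1 correlated best with FVB replicate 3, and GC13 replicate 2 with FVB replicate 1 (0.228). Deviations from a mean of 3 arrays depend on one another, so these values cannot settle the pairing. With the replicate block, 78 probe sets passed and no member did, and the Dgat1 distance had p = 0.25 by an exact sign-flip test, its smallest.

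Among members near 0 the sign turned in some settings. Scd1 94056_at was -0.01 with quantile normalization and -0.07 with array weights, and from -0.07 to 0.18 when 1 array was left out. Scd1 94057_g_at was -0.38 with array weights. Cebpa was -0.05 with quantile normalization and from -0.12 to 0.49 when 1 array was left out. Car3 was -0.01 with a pseudocount of 32 and without centring, -0.09 with quantile normalization and from -0.15 to 0.28 when 1 array was left out. Plin2 was 0.55 with array weights and from -0.35 to 0.34, Acly from -0.86 to 0.16 and Elovl6 103665_at from -0.38 to 0.17 when 1 array was left out. The number of arrays limits the precision of every value.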
